A study of Homo sapiens with 24 samples.

Results

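The genes of the collagen family were examined in D425, an established line of medulloblastoma, a malignant tumour of the cerebellum, after a short hairpin RNA against OTX2 was switched on. OTX2 is a homeodomain transcription factor with a role in fore- and hindbrain development. The set holds each probe set of the Affymetrix U133 Plus 2.0 array that was annotated with 1 gene symbol, where the symbol reads COL, a number, A and a number, together with SPARC, a secreted glycoprotein that binds collagen. These were 114 of 54675 probe sets, for 44 of 19775 genes. Probe sets are reported singly, because those of COL1A1 and COL4A4 did not move together.

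The arrays labelled shOTX2 came from D425 cells with a doxycycline-inducible hairpin against OTX2, over 3 separately run courses. They gave 3 arrays at each of 0, 8, 16, 24, 48 and 96 h after doxycycline, or 18 arrays. The control arrays came from D425 cells labelled control, in 1 course with 1 array at each of the same times, or 6 arrays, so that no spread can be given for them. Per the labels' protocols both kinds of cells grew with fetal calf serum, were plated a day before induction and were sampled as bulk RNA. The labels do not say what the control cells carry, nor whether either line is 1 clone.

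Collagens are built from chains that wind into a triple helix. The fibrillar collagens (types I, II, III, V, XI, XXIV and XXVII here) assemble into the fibrils of connective tissue, and fibril-associated collagens sit on them. Type IV chains form the sheet-like network of basement membranes: the products of COL4A1 and COL4A2 are found in most of these membranes, while those of COL4A3, COL4A4 and COL4A5 assemble with each other in the basement membranes of kidney glomerulus, lung alveolus, cochlea and eye. In the brain, collagen lies mainly in the meninges and around vessels, with little between the nerve cells.

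Values are the authors' MAS5 signal intensities, scaled so that every array has a trimmed mean of about 100. Array medians ran from 16.3 to 20.6, and how finely a value can be read depends on the few arrays per group. Testing was limited to probe sets that passed the median of their array on 3 or more arrays, which left 49 of the 114 probe sets, for 25 of the 44 genes, among 33803 kept probe sets in all. Differences are on the log2(signal + 16) scale, which understates the change of dim probe sets. A probe set is called where limma's Benjamini-Hochberg adjusted p over all 33803 is under 0.05. All times are compared with the same 0 h arrays. The OTX2 probe sets did not check the labels: 242128_at averaged 4188 ± 302 at 96 h and 4659 ± 217 at 0 h (SD, n = 3 each; log2 change -0.15, adjusted p = 0.190), and 231731_at changed by 0.12 (adjusted p = 0.377). The sources used here do not place the hairpin or these probes within OTX2, so arrays are called by their labels. The 3'/5' signal ratio of the actin probe sets, a sign of RNA or labelling quality, averaged 1.42 ± 0.0836 in course 1, 2.07 ± 0.198 in course 2 and 1.91 ± 0.0572 in course 3, against 1.40 ± 0.0858 in the control course (SD, n = 6 each).

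By 96 h, 15 collagen-set probe sets of 9 genes had risen and 10 of 4 genes had fallen in the shOTX2 arrays. The rises included SPARC, COL16A1, COL1A1 and COL5A2, and the falls were led by COL4A3, COL4A4 and COL11A1. Over all kept probe sets 20% were called higher and 16.8% lower, and in the set 30.6% and 20.4%. In either direction 51% of the set was called, against a background of 36.8%. Of all these calls 54.3% were higher, and 42.9% after each array was centred on its median, a setting under which the set still had 15 higher and 10 lower. The median change of the set was 0.05, and that of all kept probe sets was also 0.05. Of the 25 calls, 21 were changes of at least 2-fold on the log2(signal + 16) scale. The 3 kept probe sets of COL3A1 passed the filter only through shOTX2 arrays at 48 or 96 h, so they had to be higher there. Without them 12 of 46 probe sets were higher (26.1%) and 10 lower (21.7%), and 47.8% were called in either direction.

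**Figure D1:**
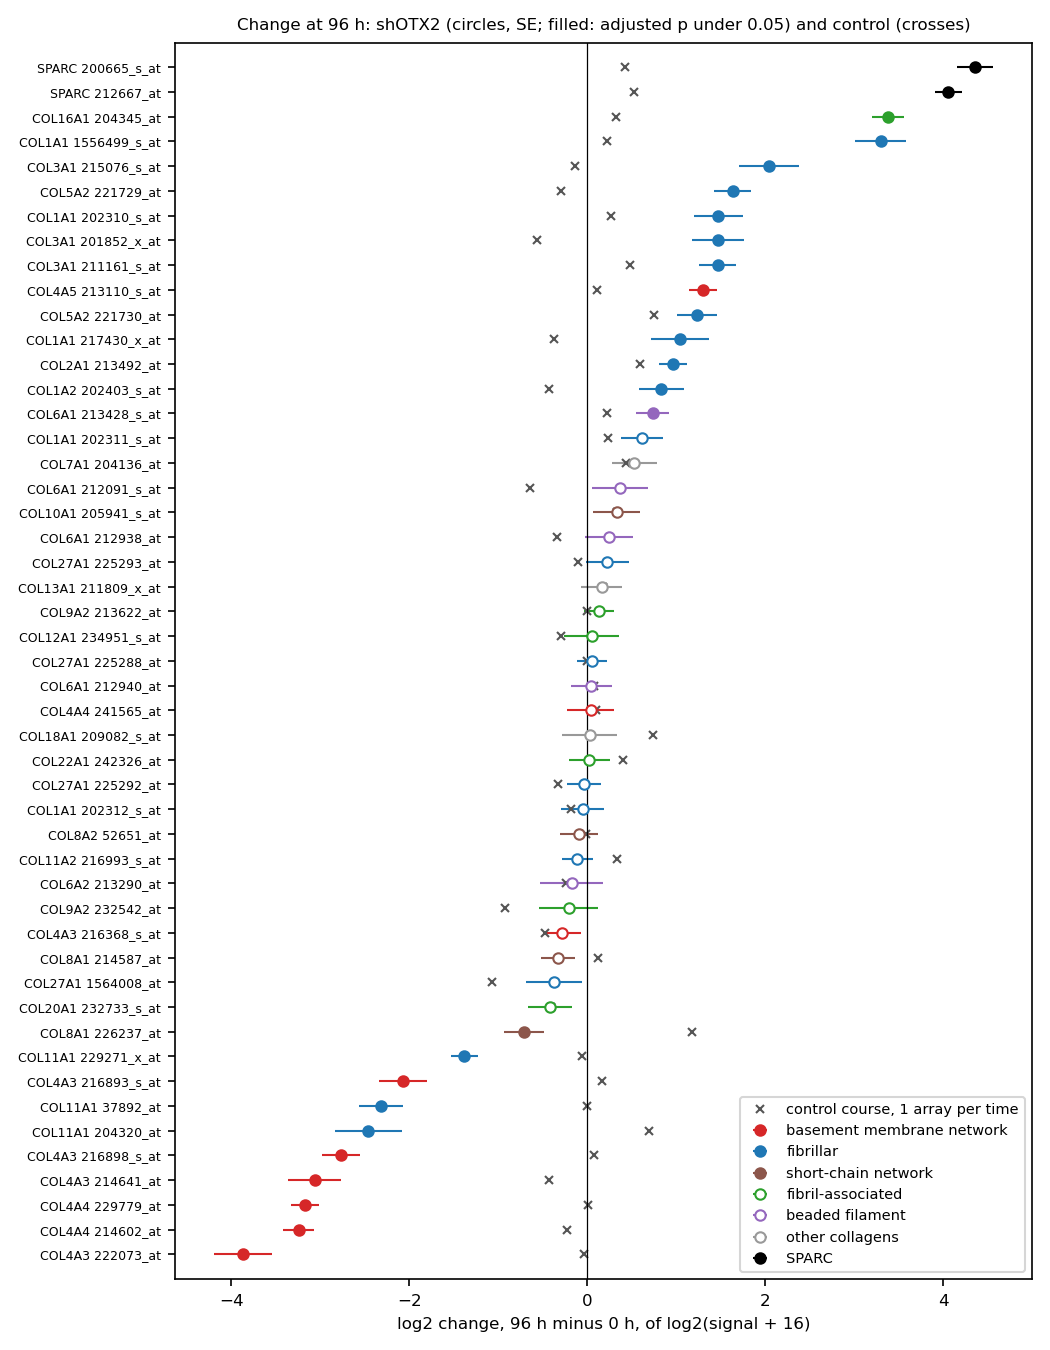
Log2 change of each of the 49 kept probe sets between 96 h and 0 h, on the log2(signal + 16) scale. Circles are shOTX2 arrays (mean of 3, bars are SE, filled where the adjusted p is under 0.05) and crosses are the control course, 1 array per time; colours give the collagen class. The changes run from 4.36 for SPARC to -3.86 for COL4A3, and the crosses stay within 1.18 of 0.

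The calls came late. None of the 49 was called at 8 h (0% of all kept probe sets were, although 1070 had an unadjusted p under 0.05). At 16 h 1 was called, COL16A1, against a background of 0.58% (0.376% higher and 0.204% lower). At 24 h 7 were called, 4 higher and 3 lower, against 3.54% (2.06% higher and 1.48% lower). At 48 h 23 were called, 16 higher and 7 lower, or 46.9% against 26.5% (14.2% higher and 12.3% lower). With the time course as a replicate block in limma the counts were 7 at 16 h and 13 at 24 h, while 48 h had 25 calls and 96 h had 26. In that fit the background was higher too, with 3.69% (16 h), 10.8% (24 h), 38.4% (48 h) and 47.7% (96 h) of all kept probe sets. Without course 2 or without course 3 the 24 h count fell to 1 and 2, and the background to 0.21% and 1.03%. First calls numbered 1 at 16 h, then 6 (24 h), 16 (48 h) and 7 (96 h), which leaves 19 of the 49 without any.

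Set against the control course's own change between 96 h and 0 h, 17 of the 49 probe sets differed between the arms, 7 higher and 10 lower in shOTX2 arrays (background 8.95%, with 4.55% higher and 4.4% lower). They belong to COL16A1, COL1A1, COL3A1, COL4A5, COL5A2 and SPARC among the higher and COL11A1, COL4A3, COL4A4 and COL8A1 among the lower. Of these, COL3A1 201852_x_at was kept only through shOTX2 arrays at 48 or 96 h, and the COL11A1 probe sets only through shOTX2 arrays. The filter thus favoured their calls. The count was 10 without course 2 and 14 without course 3, with backgrounds of 3.07% and 5.31%. With 48 and 96 h averaged and set against 0 and 8 h averaged, 19 differed between the arms, 10 higher and 9 lower (background 16.1%, with 8.36% higher and 7.78% lower). COL3A1 201852_x_at and 215076_s_at were among these higher and the COL11A1 probe sets among the lower, with the same limit from the filter. With the replicate block COL1A1 202310_s_at and 202312_s_at were called too (adjusted p = 0.00477 and 0.0416, against 0.0656 and 0.0637). COL8A1 226237_at was as well (0.00656 against 0.133).

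The type IV chains COL4A3 and COL4A4 were the collagens that fell furthest. COL4A3 probe set 222073_at read 40.1, 77.3 and 78.9 in the shOTX2 arrays at 96 h, against 884, 1390.1 and 1199 at 0 h. The 96 h arrays all lay below the 0 h arrays, and below each array of the control course, which ran from 343 to 592. The group means were 1157 ± 256, 1325 ± 318, 693 ± 257, 524 ± 212, 172 ± 37.6 and 65.4 ± 22.0 at 0, 8, 16, 24, 48 and 96 h (SD, n = 3). The log2 change at 96 h was -3.86 (SE 0.325, adjusted p = 4.44e-08). The control course read 391 at 96 h and 402 at 0 h. Relative to that change the shOTX2 change was -3.83 (adjusted p = 0.00119), and it was -3.97 in course 1, whose actin ratio was close to the control's, -3.88 in course 2 and -3.64 in course 3.

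COL4A4, whose gene lies next to COL4A3 on chromosome 2, fell over the same times on 2 of its 3 kept probe sets. Probe set 229779_at read 50.4, 70.4 and 106 at 96 h, against 745, 784 and 823 at 0 h, while the control course stayed between 424.9 and 481 at all times. The shOTX2 means were 784 ± 39.3, 757 ± 47.4, 595 ± 30.6, 532 ± 52.0, 211 ± 19.0 and 75.7 ± 28.3 from 0 to 96 h. Its log2 change at 96 h was -3.17 (SE 0.159, adjusted p = 1.35e-10), and -3.17 relative to the control. Probe set 214602_at fell by 3.24 to 21.7 ± 3.80 at 96 h, against 348 ± 101 at 0 h. At 24 h neither was called (229779_at -0.55, adjusted p = 0.0664; 214602_at -0.60, adjusted p = 0.0654), but both were with the replicate block (adjusted p = 0.0103 and 0.00830). Between 96 h and 48 h both fell again, by 1.35 and 1.36, and neither of these falls was called without course 2 (adjusted p = 0.0620 and 0.0842).

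RefSeq places COL4A3 and COL4A4 head to head with no other protein-coding gene between them, so that the stretches before their starts overlap. Their starts lie 419 bases apart on GRCh38.p14. The windows of 250 bases before and 50 after each RefSeq start are shown because these genes fell together. They are chr2:227164374-227164673 on the plus strand for COL4A3 and chr2:227164156-227164455 on the minus strand for COL4A4, and capitals mark the 82 bases that both windows hold, read on opposite strands.
COL4A3: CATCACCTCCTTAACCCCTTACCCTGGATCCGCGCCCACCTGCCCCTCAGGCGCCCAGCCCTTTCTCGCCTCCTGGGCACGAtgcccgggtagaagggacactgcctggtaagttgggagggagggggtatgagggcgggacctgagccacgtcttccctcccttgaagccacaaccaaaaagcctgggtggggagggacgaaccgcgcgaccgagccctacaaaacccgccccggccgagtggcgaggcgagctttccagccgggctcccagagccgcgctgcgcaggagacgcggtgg
COL4A4: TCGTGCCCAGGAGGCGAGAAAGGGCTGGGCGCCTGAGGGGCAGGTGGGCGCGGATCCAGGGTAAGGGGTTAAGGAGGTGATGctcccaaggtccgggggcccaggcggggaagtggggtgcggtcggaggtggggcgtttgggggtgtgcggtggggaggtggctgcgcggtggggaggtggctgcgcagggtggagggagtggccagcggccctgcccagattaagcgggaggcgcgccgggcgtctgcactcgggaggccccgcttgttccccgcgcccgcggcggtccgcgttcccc
The windows are rich in G and C, with 67.7% for COL4A3 and 74.0% for COL4A4, against a median of 58.3% over 27305 RefSeq promoter windows.

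The probe sets of COL4A3 did not all read this fall. Besides 222073_at, 3 of the 5 kept were called lower at 96 h: 214641_at by -3.06 (16.7 ± 12 at 96 h, 244 ± 24.9 at 0 h), 216898_s_at by -2.76 (14.5 ± 4.87 and 189.6 ± 9.76) and 216893_s_at by -2.07 (18 ± 7.32 and 125 ± 3.62). These 3 were also called at 24 h, with changes between -1.14 and -1.03. Each lost that call without course 2 (adjusted p between 0.309 and 0.441) and without course 3 (between 0.0529 and 0.191), and 216893_s_at also without course 1 (0.0640). Probe set 222073_at had an adjusted p of 0.0524 at 24 h and 1.51e-06 with the replicate block. With the block 222073_at and 216898_s_at were called already at 16 h, at -0.78 and -0.57 (adjusted p = 0.000599 and 0.0359). The fifth, 216368_s_at, lay near the array median, at 11.6 ± 1.55 at 96 h and 18.1 ± 6.49 at 0 h (log2 change -0.29, adjusted p = 0.325). Likewise COL4A4 probe set 241565_at lay near or below the array median, at 7.97 ± 8.11 at 96 h and 6.77 ± 3.69 at 0 h, and did not pass the test (0.04, adjusted p = 0.936). In both genes the probe sets that did not pass the test were thus those with 0 h signals near or below the array median.

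**Figure D2:**
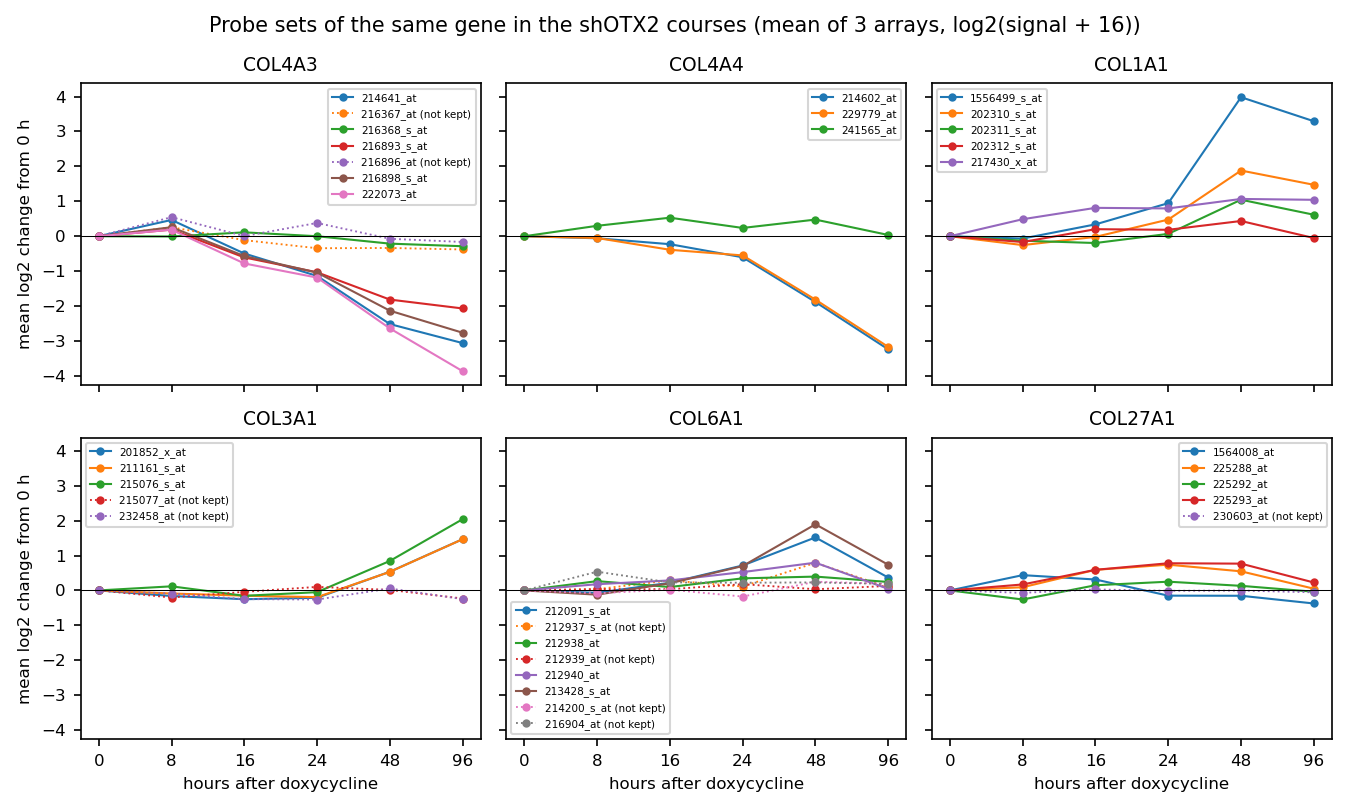
Mean log2 change from 0 h in the shOTX2 arrays (3 arrays per time) for each probe set of 6 genes, with dotted lines for probe sets that the filter did not keep; the times are evenly spaced on the axis and not to scale. In COL4A3, COL4A4 and COL1A1 some probe sets move by over 3 on the log2(signal + 16) scale while others stay near 0.

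The other type IV chains did not follow. COL4A5, which is X-linked and whose chain assembles with those of COL4A3 and COL4A4, rose. Its probe set 213110_s_at read 180, 207 and 193 at 96 h, against 67.0, 63.5 and 76.9 at 0 h, with no overlap, while the control course stayed between 18.3 and 30.7. The log2 change was 0.88 at 48 h (adjusted p = 0.000318) and 1.30 at 96 h (SE 0.155, adjusted p = 2.74e-06), or 1.20 relative to the control (adjusted p = 0.0202). The last of these was not called without course 2 (1.10, adjusted p = 0.147) or course 3 (1.26, adjusted p = 0.0633). COL4A1 and COL4A2, the common chains of basement membrane, and COL4A6 had no kept probe set, and their signals were at most 17.6 on all 24 arrays. Of the 9 kept type IV probe sets, 6 were lower and 1 higher at 96 h, with a median of -2.76. Over all kept probe sets 16.8% were lower and 20% higher. The 6 were repeated probe sets of COL4A3 and COL4A4, so the count and the median mostly restate these genes. Of the markers of retinal pigment and choroid plexus epithelium, 2 of the 6 kept of 7, AQP1 and RPE65, were called lower. The other kept ones, BEST1, MITF, TYR and CLIC6, changed by -0.30 to 0.02 and were not called. By the brightest kept probe set of each gene, 21.9% of all genes were lower. The summed signal of the list ran from 135 to 159 at 96 h, against 368 to 908 at 0 h and 206 to 277 in the control course. AQP1 read 16.3 to 17.4 at 96 h, against 225 to 757 at 0 h, where it was the largest part of the sum. TTR, a defining marker, lay below the median on all arrays. The part of these markers in the result was not tested, and in bulk RNA fewer cells of a type and less RNA per cell cannot be told apart.

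COL11A1, which encodes a chain of the minor fibrillar collagen XI, set the shOTX2 and control cells apart before any induction. At 0 h its probe set 37892_at read 354, 371 and 384 in the shOTX2 courses and 1.4 in the control. All 6 control arrays lay between 0.9 and 2.4, below the array median. On the other COL11A1 probe sets, too, no control array exceeded it. COL11A1 thus passed the filter only through shOTX2 arrays, where it is high, and the filter favoured a difference in this direction. Arms differed by 4.47 at 0 h (log2; SE 0.350, adjusted p = 4.59e-06), 4.25 for 204320_at (adjusted p = 0.000655) and 1.55 for 229271_x_at (adjusted p = 0.00209). Over all kept probe sets 0.21% were called between the arms at 0 h, 0.154% higher and 0.0562% lower in shOTX2 arrays. Without course 2 or course 3 the call of 37892_at remained, at an adjusted p of at most 0.00415 over the alternatives, and those of 204320_at (0.0538 and 0.0501) and 229271_x_at (0.106 and 0.0614) were lost.

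COL11A1 then fell in the shOTX2 arrays. At 96 h 37892_at read 33.4, 88.2 and 74.5, below all the 0 h arrays but still far above the control's 1.4. The means from 0 to 96 h were 369.7 ± 15.3, 379 ± 44.6, 337 ± 74.6, 306 ± 78.4, 199.9 ± 37.4 and 65.4 ± 28.5. The log2 change was -0.85 at 48 h (adjusted p = 0.0156) and -2.31 at 96 h (SE 0.248, adjusted p = 8.06e-07). The 48 h call was lost without course 2 (-0.93, adjusted p = 0.110) and without course 3 (-0.90, adjusted p = 0.117). Probe set 204320_at fell by 2.46 and 229271_x_at by 1.38 at 96 h, so the 3 kept probe sets had the same direction. At 48 h 204320_at was called only with the replicate block (-0.84, adjusted p = 0.000606 against 0.110). The control course read 1.4 at both times, so the difference of -2.31 between the arms (adjusted p = 0.00618) equals the shOTX2 change.

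**Figure D3:**
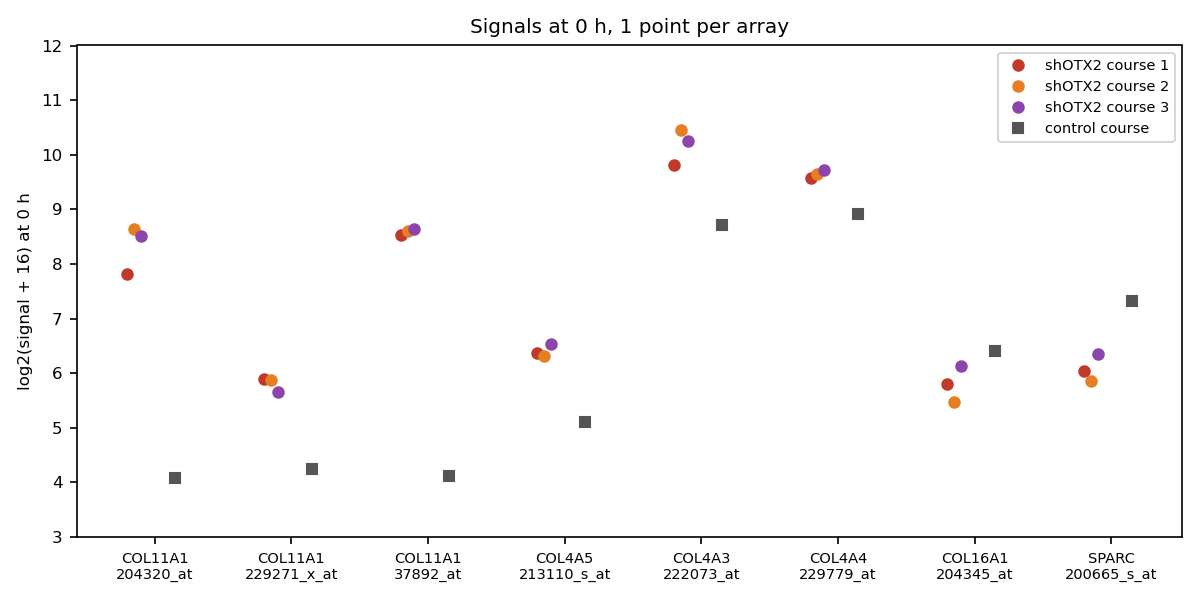
Signals at 0 h on the log2(signal + 16) scale for 8 probe sets, 1 point per array, with the 3 shOTX2 courses left of the control course. The 3 COL11A1 probe sets and COL4A5 were called between the arms; the shOTX2 points of COL11A1 37892_at lie 4.47 above the control point on average.

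COL4A5 was the other gene called between the arms at 0 h, at 1.31 (adjusted p = 0.0124, lost without course 2 at 0.220 and without course 3 at 0.149). COL4A3 222073_at was higher in shOTX2 arrays at 0 h by 1.46 and SPARC 200665_s_at was lower by 1.24, and neither was called (adjusted p = 0.274 and 0.0885). Without course 1, 13 members were called between the arms at 0 h, 10 higher and 3 lower, against 1 without course 2 and 1 without course 3. The background moved alike, to 4.33% without course 1, 0.0444% without course 2 and 0.0858% without course 3. As the control is 1 course with 1 array per time, a difference between the cell lines and one between the courses cannot be told apart here.

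SPARC rose most. Its probe set 200665_s_at read 1674, 1241 and 1246 at 96 h, against 50, 42.0 and 65.3 at 0 h. The control course lay between 140.0 and 199.9, above the shOTX2 arrays at 0 h and far below them at 48 and 96 h. The means from 0 to 96 h were 52.4 ± 11.8, 59.4 ± 19.4, 94.8 ± 17.3, 143 ± 40.2, 1150.4 ± 32.6 and 1387 ± 248, so most of the rise fell between 24 and 48 h. The log2 change was 1.20 at 24 h (adjusted p = 0.00190), 4.10 at 48 h and 4.36 at 96 h (SE 0.200, adjusted p = 6.53e-11). The 24 h call was lost without course 2 (1.24, adjusted p = 0.106), and with the replicate block the gene was called at 16 h too (0.70, adjusted p = 0.0152). Relative to the control the change at 96 h was 3.94 (adjusted p = 1.94e-05), and 4.26, 4.02 and 3.54 in courses 1, 2 and 3.

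The second probe set of SPARC changed alike at 48 h (3.42) and 96 h. At 24 h its change was 0.47 and was not called (adjusted p = 0.102). With the replicate block it was called at 16 and 24 h (adjusted p = 0.0423 and 0.0359). Probe set 212667_at read 491, 416 and 440 at 96 h, against 10.6, 13.2 and 11.9 at 0 h, a log2 change of 4.06 (SE 0.151, adjusted p = 1.01e-11). The control course read 41.6 at 96 h and 23.9 at 0 h. Both probe sets separated the 48 and 96 h arrays from the earlier ones without overlap.

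COL16A1, on chromosome 1, encodes a fibril-associated collagen and was the member called at 16 h. Its only kept probe set, 204345_at, read 640.3, 514 and 549 at 96 h, against 39.6, 28.3 and 54.5 at 0 h. The means were 42.4 ± 15.2, 88.7 ± 5.95, 141 ± 8.97, 351.2 ± 12.2 and 568 ± 65.2 from 8 to 96 h, and the arrays of 16 h lay above all 0 h arrays. The log2 change was 0.91 at 16 h (adjusted p = 0.0259), 1.49 at 24 h (0.000146), 2.72 at 48 h (8.27e-09) and 3.38 at 96 h (SE 0.180, adjusted p = 2.75e-10). The 16 h call was lost without any 1 of the courses (adjusted p = 0.0801, 0.717 and 0.116 without course 1, 2 and 3), so it was called only with all of them, while the calls from 24 h on held. The control course lay between 41.9 and 89.7 throughout. It read 68.8 at 0 h and 86.7 at 16 h, where the shOTX2 mean was 88.7, and the arms were not tested against each other at 16 h. Relative to the control the 96 h change was 3.06 (adjusted p = 6.84e-05).

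**Figure D4:**
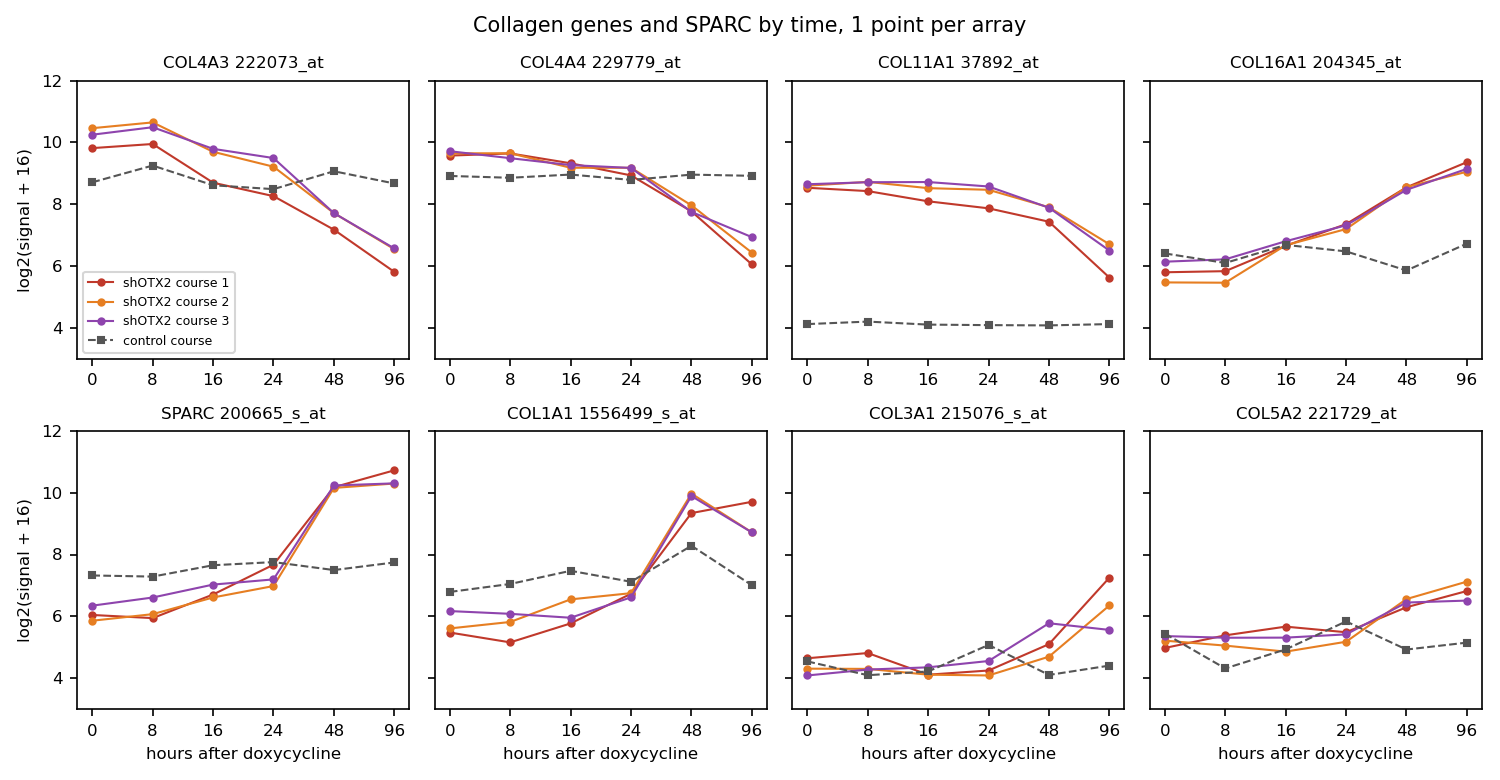
Signal of 8 probe sets by time on the log2(signal + 16) scale, 1 point per array, with solid lines for the 3 shOTX2 courses and a dashed line for the control course; the times are evenly spaced on the axis and not to scale. COL4A3, COL4A4 and COL11A1 are lowest at 96 h in each shOTX2 course, COL16A1 climbs from 16 h, and SPARC and COL1A1 climb steeply between 24 and 48 h.

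The windows before the starts of SPARC and COL16A1 are shown because these had the largest rises at 96 h by gene, COL16A1 narrowly ahead of COL1A1 (3.38 and 3.29). At 48 h COL1A1 changed more (3.98 against 2.72). They are chr5:151686866-151687165 for SPARC and chr1:31703968-31704267 for COL16A1, both on the minus strand of GRCh38.p14, and capitals mark runs of GGAGGAGG or its reverse complement CCTCCTCC, a motif chosen after the sequences were read.
SPARC: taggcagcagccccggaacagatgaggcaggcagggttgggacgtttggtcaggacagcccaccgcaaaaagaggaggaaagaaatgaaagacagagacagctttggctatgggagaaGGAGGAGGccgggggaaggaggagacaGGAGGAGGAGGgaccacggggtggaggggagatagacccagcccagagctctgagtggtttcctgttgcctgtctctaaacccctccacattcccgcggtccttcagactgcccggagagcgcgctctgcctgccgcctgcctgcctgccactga
COL16A1: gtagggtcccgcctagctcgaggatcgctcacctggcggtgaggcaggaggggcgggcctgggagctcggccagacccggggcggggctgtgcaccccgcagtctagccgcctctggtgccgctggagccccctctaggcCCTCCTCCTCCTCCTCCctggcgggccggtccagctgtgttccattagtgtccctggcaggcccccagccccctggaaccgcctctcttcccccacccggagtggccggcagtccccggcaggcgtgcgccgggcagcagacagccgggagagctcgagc
Of the 44 genes, 32 had a RefSeq promoter window. The GGAGGAGG motif, on either strand and overlaps allowed, was in 8 of the 32 (25%) and in 10.4% of all 27305 windows. The 8 include SPARC and COL16A1, from whose windows the motif was taken, so these shares are no test. Of the genes called at 96 h, 3 of the higher and 3 of the lower had a window. The motif was in 2 and 1 of these, the 1 being COL11A1. TAATCC or GGATTA, the core recognised by OTX and CRX homeodomains, was in 0 of the 32 windows and in 6.39% of all. GGGCGG or CCGCCC, the core of the Sp1 box, was in 18 of the 32 (56.2%) and in 44.6% of all. These are matches of letters within 300 bases and no binding sites.

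The fibrillar collagens other than COL11A1 rose where they changed. COL1A1 and COL1A2 encode the chains of type I collagen, the main collagen of bone, skin and tendon. COL1A1 probe set 1556499_s_at read 818, 405 and 404 at 96 h, against 28.5, 32.8 and 56.0 at 0 h. At 24 h it was called with the replicate block only (0.95, adjusted p = 0.0202 against 0.0863). At 48 h it read 632, 987 and 933, a log2 change of 3.98 (SE 0.289, adjusted p = 2.47e-08), and at 96 h the change was 3.29 (adjusted p = 7.68e-08). Course 1 was higher at 96 h than at 48 h, and courses 2 and 3 were lower, so the step between these times was not called (-0.69, adjusted p = 0.179). The control course rose too at 48 h, to 295 against 94.6 at 0 h, and read 113 at 96 h. Relative to the control the 96 h change was 3.08 (adjusted p = 0.00252), at 4.01, 2.89 and 2.33 in courses 1, 2 and 3.

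The 5 probe sets of COL1A1 disagreed in size. At 96 h 202310_s_at changed by 1.47 (95.5 ± 59.4 at 96 h and 21.5 ± 8.30 at 0 h, adjusted p = 0.000372), and 217430_x_at by 1.04 (37.9 ± 6.97 and 11.5 ± 11.9, adjusted p = 0.0172). Probe set 202311_s_at was called at 48 h (1.05, adjusted p = 0.00291) but not at 96 h (0.62, adjusted p = 0.0514, and 0.0422 with the replicate block). The fifth, 202312_s_at, read 11.9 ± 6.04 and 12.9 ± 5.56, a change of -0.05 (adjusted p = 0.898). Without course 3 217430_x_at lost both calls (adjusted p = 0.168 for 48 h and 0.148 for 96 h), and 202311_s_at lost its call at 48 h (0.0897). Of the 5, 1556499_s_at alone was called against the control, and 202310_s_at was called against it with the replicate block (1.20, adjusted p = 0.0370 against 0.221). Probe sets ending in _s_at or _x_at may read more than 1 transcript. COL1A2 stayed dim on its kept probe set 202403_s_at, at 18.7 ± 7.29 at 96 h and 3.40 ± 3.36 at 0 h (0.83, adjusted p = 0.0158). That call was lost without course 2 (0.0632) and without course 3 (0.0607).

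COL3A1 and COL5A2 encode chains of collagens III and V, which assemble together with type I in fibrils, and they are neighbours on chromosome 2. COL3A1 was near or below the array median until 24 h and appeared late: 215076_s_at read 136, 65.6 and 31.2 at 96 h, against 9.0, 3.8 and 1.0 at 0 h, and 5.2 and 7.3 in the control. The change was 2.04 (SE 0.339, adjusted p = 0.000104), and 1.47 for each of 201852_x_at and 211161_s_at. At 48 h 215076_s_at was called with the replicate block only (0.84, adjusted p = 0.0380 against 0.0767). Course 1 was highest and course 3 lowest on each of the 3 at 96 h. As stated, these probe sets were kept through the arrays in which they are high. The difference from the control was called for 201852_x_at (2.03, adjusted p = 0.0373), not without any 1 of the courses (adjusted p between 0.0550 and 0.0964), and for 215076_s_at with the replicate block only (2.18, adjusted p = 0.0173 against 0.0536).

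COL5A2 rose on both of its kept probe sets. Probe set 221729_at read 96.9, 123 and 75.1 at 96 h, against 15.5, 21.1 and 25.1 at 0 h, and the control course lay between 3.9 and 41.1. The change was 1.25 at 48 h (adjusted p = 0.000183) and 1.63 at 96 h (SE 0.208, adjusted p = 5.82e-06), or 1.92 relative to the control (adjusted p = 0.00654). Probe set 221730_at rose by 1.23 at 96 h (adjusted p = 0.000241), with 55.6 ± 9.32 at 96 h, against 14.6 ± 4.90 at 0 h. Its control array was higher at 96 h too, 16.8 against 3.5 at 0 h, and its difference from the control was not called (0.48, adjusted p = 0.628). Its 48 h call (0.67, adjusted p = 0.0331) was lost without course 2 (0.235) and without course 3 (0.467).

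COL2A1, the cartilage collagen, rose by 0.97 at 96 h (213492_at, SE 0.158, adjusted p = 8.76e-05), with 101, 79.7 and 86.8 against 31.4, 43.9 and 38.2 at 0 h. The control course also read higher at 96 h, 102 against 62.0 at 0 h, and the difference between the arms was not called (0.37, adjusted p = 0.584). COL27A1, a long fibrillar collagen, was higher for a time and then back near its start. Its probe set 225288_at averaged 88.2 ± 9.08, 96.8 ± 25.7, 141 ± 7.74, 157 ± 4.60, 137 ± 18.1 and 92.9 ± 20.4 from 0 to 96 h. The change was 0.74 at 24 h (adjusted p = 0.0182), 0.55 at 48 h (0.0212) and 0.05 at 96 h (0.856). Without course 2 the calls of 24 and 48 h were lost (0.217 and 0.125), and without course 3 likewise (0.208 and 0.203). The control course had a like shape, with 248 at 16 h and 266 at 48 h, against 163 at 0 h, and no COL27A1 probe set was called between the arms. Probe set 225293_at had the same pattern with 1 call, at 48 h (0.77, adjusted p = 0.0230), which was lost without course 2 (0.49, adjusted p = 0.337). Both COL27A1 probe sets were called at 16 h with the replicate block (0.59 each, adjusted p = 0.0212 and 0.0449). That fit also called 225293_at at 24 h (0.78, adjusted p = 0.00295 against 0.0878). The third, 225292_at, had the highest mean signal of those never called (59.6 ± 6.32 at 96 h and 61.8 ± 9.67 at 0 h), and 1564008_at was dim.

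Fibrillar collagens thus made up 10 of the 15 higher probe sets at 96 h and 3 of the 10 lower, all 3 of them COL11A1, out of 20 kept. Without the 3 COL3A1 probe sets, kept through the arrays in which they are high, they were 7 of 12 higher. The 10 were probe sets of COL1A1, COL1A2, COL2A1, COL3A1 and COL5A2, several of them repeats of 1 gene. Over all kept probe sets 20% were higher and 16.8% lower. Markers of fibroblasts and other mesenchymal cells were read beside them. Of 12, 6 were kept; PDGFRA and PDGFRB were called higher and TWIST1 and PRRX1 lower. The summed signal of the list ran from 320.4 to 390.2 in shOTX2 arrays at 96 h, against 320.1 to 395.8 at 0 h and 327 to 380 in the control. Moves in both directions offset each other in this sum. TWIST1 read 132.2 to 137.5 at 96 h, against 187.8 to 221.1 at 0 h, and PRRX1 15.3 to 21.4 against 52 to 55.3. PDGFRB read 75.7 to 137.7 against 15.9 to 33.3, and PDGFRA 28.2 to 41.6 against 0.9 to 7. Of the same list, DCN, LUM and POSTN had highest signals of 30.5, 16.9 and 11.8. DCN exceeded the array median on 11 of the 24 arrays, and LUM and POSTN on 0. In the mural cell list, 1 of 6, RGS5, was called higher, and its sum ran from 186 to 233 at 96 h, against 163 to 185 at 0 h and 178 to 246 in the control. Of the endothelial list 1 of 7 was kept and 0 were called, and its sum ran from 56.8 to 73.6 at 96 h, against 44.1 to 67.3 at 0 h. Of the macrophage list 1 of 4 on the array was kept and 0 were called (27.0 to 42.5 and 25.6 to 38.4). Of the markers listed for D425, OTX2, MYC and NRL exceeded the array median on all 24 arrays, and EOMES on 3. NRL read 379.6 to 648 at 96 h and 159.7 to 402 at 0 h (0.81, adjusted p = 0.0680). The summed signal of the 4 genes of that list ran from 7361 to 7933 at 96 h, against 9481 to 10565 at 0 h and 10865 to 12769 in the control, and MYC was called lower (-0.71). Of the neuron list 6 of 7 were called higher, and its sum ran from 6479.7 to 6974 at 96 h, against 2329.7 to 3511 at 0 h and 2135 to 3096 in the control. Of the astrocyte and oligodendrocyte list, with 4 of 6 kept, 1 was higher and 1 lower, and its sum ran from 317 to 354 at 96 h, against 276 to 398 at 0 h. By the brightest kept probe set of each gene, 20.6% of all genes were called higher and 21.9% lower at 96 h. The part of these lists in the collagen results was not tested.

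COL6A1 encodes a chain of the beaded filaments of type VI and peaked at 48 h. Its probe set 213428_s_at averaged 60.1 ± 7.85, 54.1 ± 9.39, 71.8 ± 9.20, 108 ± 21.7, 267 ± 36.4 and 113 ± 28.3 from 0 to 96 h. All arrays of 48 h lay above all others, the control course included, whose highest was 158 at 48 h. The change was 0.70 at 24 h (adjusted p = 0.0432), 1.89 at 48 h (SE 0.184, adjusted p = 6.36e-07) and 0.74 at 96 h (0.00387), and the step between 96 h and 48 h was -1.16 (adjusted p = 0.000866). The 24 h call was lost without any 1 of the courses (adjusted p between 0.0883 and 0.327), the 96 h call without course 3 (0.0598) and the last step without course 2 (0.103). Probe sets 212091_s_at (1.52, adjusted p = 0.00142) and 212940_at (0.79, adjusted p = 0.0158) were called at 48 h and not at 96 h (0.37 and 0.05). Without course 2 neither was called at 48 h (adjusted p = 0.0643 and 0.106), and without course 3 212940_at was not (0.106). The fourth kept probe set, 212938_at, was called at no time (0.40 at 48 h, adjusted p = 0.324). COL6A2, its neighbour on chromosome 21, had 1 kept probe set, dim and never called (14.8 ± 8.79 at 96 h and 18.5 ± 8.09 at 0 h). COL6A3, whose chain completes the usual type VI trimer, had none.

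Over the whole set the last step, 96 h against 48 h, was a comparison added after the values had been seen. It called 13 of the 49 probe sets, 4 higher and 9 lower (background 7.75%, with 3.88% higher and 3.87% lower). Of the 9 lower, 6 were probe sets of COL4A3, COL4A4 and COL11A1 that were lower at 96 h than at 48 h, 2 were those of COL6A1, and 1 was COL8A1. The 4 higher were COL16A1, SPARC 212667_at and 2 of COL3A1. These 2 passed the filter only through shOTX2 arrays at 48 or 96 h. Without course 2 the call of COL11A1 229271_x_at alone was left of the 13.

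COL8A1, a short-chain collagen of the vessel wall and cornea, fell by 0.71 at 96 h on 226237_at (SE 0.226, adjusted p = 0.0188). It read 43.7, 62.6 and 90.7 at 96 h, against 92.6, 105 and 152 at 0 h. These groups touched closely, at 90.7 and 92.6, and each course fell against its own 0 h array. The control course moved the other way, to 188 at 96 h against 73.9 at 0 h, so the difference between the arms was -1.89 (adjusted p = 0.0126). Without course 2 neither was called (-0.76, adjusted p = 0.147, and -1.94, adjusted p = 0.116). Its other kept probe set, 214587_at, was dim, at 9.47 ± 1.54 at 96 h and 15.9 ± 0.721 at 0 h, and not called (-0.33, adjusted p = 0.211).

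The remaining kept members stayed below the threshold at all times. Those with the highest mean signal besides COL27A1 were COL11A2 216993_s_at, a chain of type XI on chromosome 6, at 35.3 ± 1.28 at 96 h and 39.5 ± 2.62 at 0 h (-0.11, adjusted p = 0.666), and COL7A1 204136_at, the anchoring fibril collagen, at 43.4 ± 21.0 and 23.7 ± 5.97 (0.53, adjusted p = 0.114). COL8A2, COL9A2, COL10A1, COL12A1, COL13A1, COL18A1, COL20A1 and COL22A1 had changes at 96 h between -0.42 and 0.33, none called. Of the 49 kept probe sets, 13 exceeded the array median in all 24 arrays.

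The other 65 probe sets were not kept. Their signals lay between 0.2 and 31.4, and 19 genes had no other: COL4A1, COL4A2, COL4A6, COL5A1, COL5A3, COL6A3, COL6A5, COL6A6, COL9A1, COL9A3, COL14A1, COL15A1, COL19A1, COL21A1, COL23A1, COL24A1, COL25A1, COL26A1 and COL28A1. At this signal a change could not be told from background, and nothing is said of their direction.

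The genes that fold, process, bind and degrade collagens were read by the brightest kept probe set of each gene. By that reading 20.6% of all 13903 genes were called higher and 21.9% lower at 96 h, with a median change of 0.00, and 5.55% were higher and 6.48% lower against the control change. Of 20 kept genes, among 24 listed, of collagen folding and modification in the secretory pathway, 2 were higher and 4 lower (median -0.20). SEC24D, a coat protein of the vesicles that carry procollagen, rose by 0.77, while FKBP14, a prolyl isomerase, fell by 0.65, PLOD2, a lysyl hydroxylase, by 0.64 and P4HA1, a subunit of prolyl hydroxylase, by 0.56. The adjusted p of P4HA1 without course 2 was 0.0509, and FKBP14 was not called without course 2 (0.203) or course 3 (0.115). Against the control change 0 of the 20 were higher and 3 lower, and 2 of these were lost without course 2 (PLOD2 0.145, P4HA1 0.182) and without course 3 (0.0952 and 0.0646).

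Of 11 kept genes, among 15 listed, of collagen processing and cross-linking, 4 were higher and 1 lower (median 0.13). LOXL4, a lysyl oxidase, averaged 361 ± 74.3 at 96 h and 47.5 ± 14.0 at 0 h (2.57, adjusted p = 6.37e-08). BMP1, the protease that removes the C-propeptide of fibrillar procollagens, averaged 136 ± 35.9 and 30.8 ± 1.55 (1.68, adjusted p = 5.00e-07). TGM2, a transglutaminase, rose by 1.58. PCOLCE2, an enhancer of the BMP1 cleavage, fell by 1.69, to 196 ± 50 against 660 ± 11.8 at 0 h. Against the control change LOXL4 (2.40) and PCOLCE2 (-1.79) were called, 3 of the 11 being higher and 1 lower. BMP1 (1.43) and TGM2 (2.41) were the others, and neither was called without course 2 (adjusted p = 0.0951 and 0.0968), nor TGM2 without course 3 (0.0743).

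Of 10 kept collagen receptor genes, among 11 listed, 2 were higher and 2 lower (median -0.02). ADGRG1, an adhesion receptor that binds collagen III in the developing cortex, averaged 548 ± 123 at 96 h and 9.07 ± 7.17 at 0 h (4.51, adjusted p = 2.38e-09). ITGB1, the common beta chain of the collagen integrins, rose by 0.42, with 2141 ± 170 at 96 h and 1590.1 ± 102 at 0 h. ITGA1 and MRC2 fell by 0.63 and 0.95, and ITGA1 was not called without any 1 of the courses (adjusted p between 0.0786 and 0.211). Against the control change ADGRG1 alone was called (4.30, adjusted p = 0.000214).

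Of 13 kept genes, among 20 listed, of collagen degradation and its inhibitors, 1 was higher and 6 lower (median -0.38). CTSV, a cysteine cathepsin, averaged 75.1 ± 23.4 at 96 h and 2070 ± 360 at 0 h (-4.54, adjusted p = 2.10e-10), and its control array fell as well, to 413 against 1309 at 0 h. TIMP3, a matrix-bound inhibitor of metalloproteinases, averaged 32.3 ± 13.2 and 1177 ± 609 (-4.51, adjusted p = 7.59e-09), and the control read 414 and 342. CTSL fell by 1.62, and TIMP2 rose by 1.79, to 705 ± 125 against 195 ± 55.1 at 0 h. Against the control change 1 was higher and 4 lower, and of these TIMP2 and CTSL were not called without course 2 (adjusted p = 0.0723 and 0.0795).

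Of 11 kept basement membrane partners, among 17 listed, 0 were higher and 2 lower (median -0.32): LAMA1, the alpha chain of the embryonic laminin, at 34.4 ± 14.4 at 96 h and 391 ± 59.5 at 0 h (-3.04, adjusted p = 1.73e-10), and LAMC1, the common gamma chain, at 135 ± 9.15 and 347 ± 50.8 (-1.26). The control read 444 for LAMA1 at 96 h and 331 at 0 h. Both fell with COL4A3 and COL4A4 and both differed from the control change (-3.45 and -1.36), LAMC1 not without course 3 (adjusted p = 0.0827). Of 12 kept matricellular relatives of SPARC, among 20 listed, 5 were higher and 2 lower (median -0.02), led by THBS1 (1.47), TNC (1.43) and TNR (1.02) among the higher and SPOCK1 (-1.21) among the lower. Without course 3 TNR was not called (adjusted p = 0.0571). Against the control change THBS1 alone was called (1.61), and not without course 2 (adjusted p = 0.0998).

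Of 9 kept genes, among 25 listed, with a collagen domain outside the COL names, 1 was higher and 2 lower (median -0.04). COLEC12, a scavenger receptor, averaged 22.7 ± 6.71 at 96 h and 223 ± 91.5 at 0 h (-2.56). The control read 27.5 at 96 h and 29.2 at 0 h, so the shOTX2 arrays began far above it and fell to near its level. C1QL1, a secreted ligand of climbing fibre synapses, rose by 1.34, and C1QTNF1 fell by 0.78, not called without course 1 (adjusted p = 0.166) or course 3 (0.119). Set against the control, 0 were higher and 2 lower, of which COLEC12 was lost without course 2 (0.0899) and C1QTNF1 without course 3 (0.107). For C1QTNF1 this difference was -1.86, and its control array rose, to 27.5 at 96 h against 4.6 at 0 h. Of 14 kept genes, among 16 listed, of the TGF-beta axis, a pathway known to raise fibrillar collagen transcription, 7 were higher and 3 lower (median 0.33). TGFB3, a ligand, averaged 268 ± 19.4 and 37.3 ± 3.60 (2.41, adjusted p = 7.57e-09), TGFBR1, a receptor, 1848 ± 16.1 and 693 ± 106 (1.41), and SMAD7, an inhibitor that the pathway induces, 91.9 ± 38.7 and 9.33 ± 1.56 (2.04). LTBP1, which holds the latent ligand in the matrix, fell by 1.71. Set against the control, 3 were higher and 1 lower, LTBP1 not without course 2 (adjusted p = 0.0990).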

How the data were processed

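The deposited table holds MAS5 signal intensity on a linear scale for 54675 probe sets on 24 arrays. Made by the authors with MAS5 and GCOS, per the submitters' processing notes (no version is named), the values had trimmed means of 100.011 to 100.014 per array when 2% was cut from either end, which is a scaling of whole arrays to about 100. No detection calls were used.

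Groups, times and course numbers came from the labels, which gave 12 groups. Names came from the annotation of the platform, with symbols updated by Entrez ID through the RefSeq table of GRCh38.p14. Signals above the array median in at least 3 arrays kept 33803 probe sets; 62 AFFX controls were left out. log2(signal + 16) was fitted with limma 3.58.1 in R 4.3.3 on 12 group means of all 24 arrays, with eBayes and a mean-variance trend and 12 residual degrees of freedom. The spread comes from the shOTX2 groups; control groups of 1 array are assumed to vary alike. The script was tested on simulated data.

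Course numbers pair arrays, since the labels describe independent courses: deviations correlated in all 45 pairs of same-numbered arrays (r from 0.175 to 0.600, median 0.257). The course as a replicate block was an alternative, and its value stands beside a result whose call it changes. Other alternatives were pseudocounts of 4 and 64, no filter, median centring, no variance trend, 1 probe set per gene, only the compared groups, and leaving out each course.

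The collagen members, their classes and all gene lists were chosen with earlier results of these data known. Text names each member with a probe set called at any time or between the arms, the brightest never called, and up to 4 called genes a list with the largest change. The step between 96 h and 48 h was added after the values were seen. Promoter windows are RefSeq's for GRCh38.p14; no coordinates were given to probe sets.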

Additional observations from a re-analysis of the deposited data

Results flagged for a closer look

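For 17 probe sets of the collagen set the change between 96 h and 0 h differed between the shOTX2 arrays and the control course by limma's test of that difference. The control has 1 array per time, so its own spread is assumed and not measured. Values are the shOTX2 change minus the control change on the log2(signal + 16) scale, with the adjusted p.

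Among the type IV chains the difference was -3.83 for COL4A3 222073_at (0.00119), -2.84 for 216898_s_at (0.000486), -2.63 for 214641_at (0.00906) and -2.23 for 216893_s_at (0.0122). It was -3.17 for COL4A4 229779_at (1.63e-05), -3.01 for COL4A4 214602_at (6.04e-05) and 1.20 for COL4A5 213110_s_at (0.0202). For COL11A1, which lay below the array median throughout the control course, it was -3.15 for 204320_at (0.0118), -2.31 for 37892_at (0.00618) and -1.32 for 229271_x_at (0.0110). COL11A1 passed the filter only through shOTX2 arrays. COL8A1 226237_at differed by -1.89 (0.0126).

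Among the risers the difference was 3.94 for SPARC 200665_s_at (1.94e-05), 3.53 for SPARC 212667_at (1.01e-05), 3.08 for COL1A1 1556499_s_at (0.00252), 3.06 for COL16A1 204345_at (6.84e-05), 2.03 for COL3A1 201852_x_at (0.0373) and 1.92 for COL5A2 221729_at (0.00654). The COL3A1 probe set passed the filter only through late shOTX2 arrays. Without course 2, 10 of the 17 differences were still called, and the 7 lost were COL3A1, COL4A5, COL8A1, COL11A1 204320_at and 229271_x_at, and COL4A3 214641_at and 216893_s_at. Of these, COL3A1, COL4A5 and both COL11A1 probe sets also lost the call without course 3, and COL3A1 without course 1.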

How the results depend on the processing

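No called value changed direction under any alternative tried. Of 96 calls of collagen probe sets, the last step from 48 to 96 h left aside, 59 were kept under all alternatives and 37 lost under at least 1, 30 of them without course 2, 27 without course 3 and 5 without course 1. Of the 13 calls of the last step 12 were lost under at least 1, and of 49 calls of the named genes of the lists 16. Dropping course 1 lowered the typical residual SD to 0.192, against 0.251 with all courses, while it came to 0.254 when course 2 was dropped and to 0.257 when course 3 was; the cause was not tested. With the replicate block the counts of called collagen probe sets were 7 in place of 1 at 16 h and 13 in place of 7 at 24 h, and changed by under 1.5 times elsewhere; no such fit was possible between the arms at 0 h. Without 1 course the counts ran from 0 to 1 at 16 h, from 1 to 7 at 24 h, from 10 to 16 for the difference between the arms at 96 h, and from 1 to 13 between the arms at 0 h. From only the groups compared they were 0 at 16 h and 4 at 24 h, and without the filter 4 at 24 h. With 1 probe set per gene, by construction fewer are tested: 11 were called at 48 h, 13 at 96 h, 10 between the arms at 96 h, 10 between the arms late against early and 2 between the arms at 0 h. Median centring shifted all kept probe sets by -0.12 at 96 h and moved the share of higher calls among all from 54.3% to 42.9% at 96 h and from 53.5% to 38.4% at 48 h, while the collagen set still had 15 higher and 10 lower at 96 h. Dim probe sets, near the array median, limit what can be seen of the 65 members that were not kept.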
